A study of Mus musculus with 2 samples.

Results

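The 34 genes described here encode transcription factors that direct the development of organs other than the kidney: 14 of the brain and spinal cord, 5 of the neural crest, face and limb, 2 of skeletal muscle, 7 of the heart, 5 of gut, lung, thyroid and pancreas, and Lhx9 of the gonad and limb. A peak was counted as belonging to a gene when its summit lay inside the gene, or within 100 kb of it and nearer to an end of that gene than to an end of any other gene among the 21887 protein-coding genes. By this rule the genes held 233 of 77529 peaks in control cells and 206 of 61210 in Brg1 cKO cells. For genes outside the group, in every count of assigned peaks below, peaks were assigned by nearest end within 100 kb only. The peaks come from ATAC-seq, which marks open chromatin by where a transposase can cut DNA, on tdTomato-positive cells of the Wnt4 lineage sorted from mouse kidneys at E18.5, 50000 cells per reaction. The control genotype is labelled WT control and the other Brg1cKO/cKO, a conditional deletion of Brg1 (Smarca4), whose product is the ATPase subunit of BAF chromatin remodellers. The labels name neither the Cre driver nor the animals pooled, and the cell type entry of the control library reads only control, so that both hold sorted Wnt4-lineage cells rests on the titles, the shared protocol and the design text. There was 1 library per genotype, so no difference between genotypes could be tested. The 95% intervals below are exact binomial (Clopper-Pearson) intervals. They treat peaks as independent and cover counting error over peaks only, not variation between animals or libraries. Peaks of a gene lie close together, so the intervals may be too narrow. Read counts are not part of the peak lists, so the depth of each library is unknown. In a bulk library, fewer cells with an open region and less opening per cell cannot be told apart.

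Regulators of this kind sit at the top of organ programmes. Neurod1 and Neurog2 are basic helix-loop-helix factors of neurons, Sox2 and Pax6 act in neural progenitors, Gata4, Hand2 and Nkx2-5 in the heart, and Foxa1 and Foxa2 open chromatin as pioneer factors in the endoderm. In cells where they are silent, their CpG-rich promoters are commonly held by Polycomb complexes, often with marks of an active promoter as well, and such promoters can be accessible without the gene being transcribed. BAF complexes are known to evict Polycomb and to open enhancers. An open region at one of these genes is therefore a measurement of accessibility and not of expression.

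Promoters of the group ranged from dense in CpG to almost free of it. The 250 bases before the RefSeq start site (GRCm38.p6, the assembly of mm10) are printed for 6 genes, 5′ to 3′ in the direction of transcription, with each CpG in capitals. Neurod1 (chr2:79456637-79456886, minus strand) is shown because a peak lay over its start in the cKO list alone. Six3 (chr17:85620584-85620833, plus strand) is shown because a peak reached this window in the control list alone. Nkx6-1 (chr5:101664712-101664961, minus strand), Neurog2 (chr3:127632886-127633135, plus strand) and Msx1 (chr5:37824586-37824835, minus strand) had the most significant control peaks over a promoter, present in both lists. Myf5 (chr10:107486135-107486384, minus strand) was added after its values were seen, as the gene with no peak in either list.
Neurod1: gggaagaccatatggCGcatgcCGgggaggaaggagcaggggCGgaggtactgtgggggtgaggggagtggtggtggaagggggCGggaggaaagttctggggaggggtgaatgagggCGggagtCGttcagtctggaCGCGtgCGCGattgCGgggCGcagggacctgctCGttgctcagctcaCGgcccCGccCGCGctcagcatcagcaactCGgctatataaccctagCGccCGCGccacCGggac
Six3: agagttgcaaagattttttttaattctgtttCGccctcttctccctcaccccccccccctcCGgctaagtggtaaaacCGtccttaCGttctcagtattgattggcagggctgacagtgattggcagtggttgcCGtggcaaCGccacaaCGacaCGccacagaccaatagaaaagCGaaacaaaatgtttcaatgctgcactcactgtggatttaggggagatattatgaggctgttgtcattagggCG
Nkx6-1: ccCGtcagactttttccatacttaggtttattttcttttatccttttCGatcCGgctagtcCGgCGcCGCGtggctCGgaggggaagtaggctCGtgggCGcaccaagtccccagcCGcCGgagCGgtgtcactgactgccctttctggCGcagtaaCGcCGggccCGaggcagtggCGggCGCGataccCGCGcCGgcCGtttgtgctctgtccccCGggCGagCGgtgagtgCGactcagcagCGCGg
Neurog2: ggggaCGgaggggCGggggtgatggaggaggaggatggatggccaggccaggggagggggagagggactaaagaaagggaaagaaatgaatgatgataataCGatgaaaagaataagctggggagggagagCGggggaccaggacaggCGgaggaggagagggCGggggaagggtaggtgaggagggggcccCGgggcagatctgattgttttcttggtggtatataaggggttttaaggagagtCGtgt
Msx1: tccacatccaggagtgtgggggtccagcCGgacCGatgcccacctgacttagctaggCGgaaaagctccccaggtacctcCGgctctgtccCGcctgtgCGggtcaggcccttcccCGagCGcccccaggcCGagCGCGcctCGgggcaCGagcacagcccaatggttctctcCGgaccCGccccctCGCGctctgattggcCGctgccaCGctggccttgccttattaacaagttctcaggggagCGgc
Myf5: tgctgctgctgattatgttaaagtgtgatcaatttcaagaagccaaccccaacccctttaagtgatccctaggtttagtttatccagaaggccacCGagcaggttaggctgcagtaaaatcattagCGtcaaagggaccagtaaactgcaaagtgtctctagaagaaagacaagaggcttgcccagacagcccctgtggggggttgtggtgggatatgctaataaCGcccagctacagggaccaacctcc

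These windows held 22 CpGs at Neurod1, 10 at Six3, 30 at Nkx6-1, 8 at Neurog2, 20 at Msx1 and 3 at Myf5.

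Nearly all of the regulators had open regions assigned to them in these kidney cells, with or without Brg1, inside the gene or up to 100 kb away. Of the 34 genes, 33 had at least 1 assigned peak in each list, where the shares over all protein-coding genes were 74.8% and 72.7%. The exception was Myf5, a muscle determination factor. The median was 7 control and 6 cKO peaks per gene, against 2 and 1 over all protein-coding genes. These genes also have wide surroundings, with a median of 130 kb assignable to each against 46.4 kb for all genes. Per 100 kb of such territory they held 5.41 control and 4.78 cKO peaks, and all protein-coding genes 4.0 and 3.16. The density was higher still at transcription factors of the kidney, 7.84 and 6.49, and at genes of Polycomb subunits, 6.45 and 5.26. Of the regulators' own peaks, 84 control (36.1%) and 67 cKO (32.5%) peaks lay outside the gene and nearer to an annotated noncoding gene; they were kept because the assignment used protein-coding genes only.

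**Figure D1:**
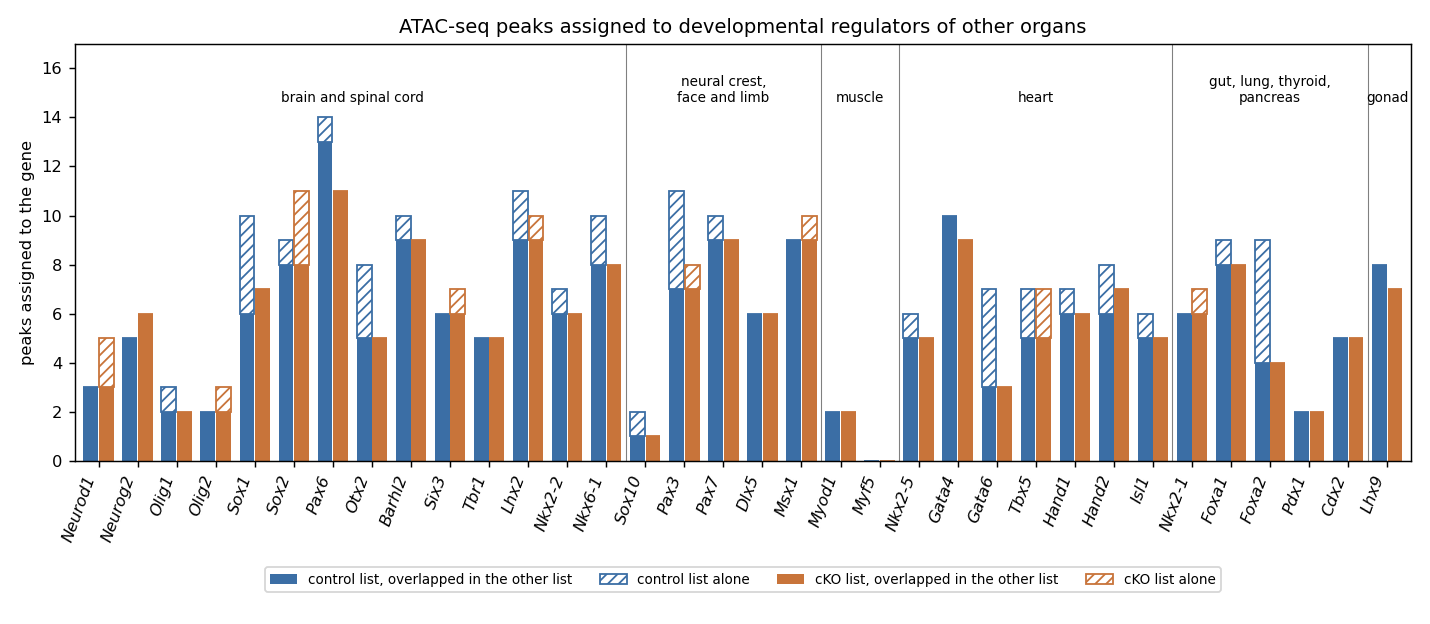
Number of peaks assigned to each of the 34 genes (y axis), in the control list (blue) and the cKO list (orange), by organ. Solid bars are peaks that overlap a peak of the other list and hatched bars are peaks of 1 list alone; 33 of 34 genes have solid bars in both, and Myf5 has none.

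The peaks were moderate in strength. Peaks were ranked within their own list by the authors' -log10 p and divided into 10 equal classes (deciles), from decile 1, the weakest, to decile 10. The strongest 3 deciles held 37 of the 233 control peaks (15.9%) and 26 of the 206 cKO peaks (12.6%), where all peaks give 30.0%. At least 1 such peak, in decile 8 or above, was present at 22 of 34 genes in the control and at 20 of 34 in the cKO list; the share over all genes was not computed. Nkx6-1, a homeobox factor of spinal cord and pancreatic beta cells, had the only peak in decile 10, a control peak of 4180 bp over its promoter with a -log10 p of 10.37. The cKO peak over the same promoter was 3813 bp wide, in decile 9. Tbr1, a T-box factor of cortical neurons, had its strongest peak inside the gene, in decile 9 in each list, and so did Neurog2. At the weak end, Myod1, the master factor of muscle, had 2 peaks in each list, the strongest in decile 4 of the control and decile 6 of the cKO list. Sox10, a factor of neural crest and glia, had 2 control peaks and 1 cKO peak, the strongest in deciles 5 and 2.

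The peaks were also crowded. The nearest other peak of the same list was a median of 1754 bp away for control and 972 bp for cKO peaks, against 4039 and 5227 bp for all peaks. Pax6, an eye, brain and pancreas factor, had the most, 14 control and 11 cKO peaks, of which 7 in each list lay inside the gene (chromosome 2, 105668896 to 105698410). Gata4 (chromosome 14, 63198914 to 63271712), a zinc finger factor of heart and gonad, had 9 of 10 control and 8 of 9 cKO peaks inside the gene. Lhx2 (chromosome 2, 38339271 to 38369737), a LIM homeobox factor of forebrain and eye, had 11 control and 10 cKO peaks, 6 and 7 of them inside. Barhl2 (chromosome 5, 106452523 to 106458166), a homeobox factor of retina and brain, had 10 control and 9 cKO peaks, the strongest in decile 8 in each list. Pax7 (chromosome 4, 139737059 to 139833530), a paired box factor of muscle precursors and neural crest, had the same numbers, with 5 control and 4 cKO peaks inside the gene and the strongest in decile 7. Msx1 (chromosome 5, 37820491 to 37824585) had 9 control and 10 cKO peaks, the strongest over its promoter, 2227 bp wide in control and 2230 bp in cKO cells, in decile 9 in each list. Lhx9, a relative of Lhx2 in the gonad, had 7 of 8 and 6 of 7 inside.

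Open gene ends gave the same picture. A peak within 1000 bp of either annotated end was present at 29 of 34 genes in the control (67.6% of all protein-coding genes) and at 31 of 34 in the cKO list (66.2% of all). All 29 were shared, no gene had an open end in the control list alone (1.68% of all genes), and Neurod1 and Six3 had one in the cKO list alone (0.292% of all genes). At Six3, a homeobox factor of forebrain and eye, this held at both annotated ends. At the far end lay an unmatched cKO peak. The other end, base 85613608, was counted through a shared peak that straddled the 1000 bp limit. That peak began at base 85614394 in the cKO list and at base 85614735, beyond the limit, in the control list. The RefSeq start of Six3, farther inside the gene, was open in both lists. The control peak there began at base 85620696, before the start, and the cKO peak at base 85620970, past it. Myf5, Gata4 and Tbx5 had no peak at an annotated end, although Gata4 and Tbx5 had peaks within the gene.

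Start sites and their sequence could be read for the 25 genes found in the RefSeq promoter table; Olig1, Sox10, Pax3, Dlx5, Myod1, Gata4, Gata6, Tbx5 and Hand1 were not matched. Within 1000 bp of a RefSeq start, 23 of 25 genes had a control peak and 24 had a cKO peak, the difference being Neurod1. Over the 17492 protein-coding genes in the table the shares were 67.5% and 66.3%, with 0.189% open in the cKO list alone. The 25 genes had 32 promoters of 300 bases (250 before and 50 after the start), with a median CpG observed over expected ratio of 0.757, against 0.567 for the 21263 promoters of protein-coding genes in the table. By a GC content of at least 50% and a ratio of at least 0.6, 19 of the 32 were CpG-rich (59.4%, against 45.1% of all). A peak overlapped 17 of these 19 in each list, and over all genes 97.7% of CpG-rich promoters with control and 97.6% with cKO peaks. The CpG-rich promoter window of Neurod1 had no control peak and that of Six3 no cKO peak. That of Nkx2-2, a homeobox factor of spinal cord and pancreas, had none in either list. A shared Nkx2-2 peak lay past this window, with its summit 597 bp after the start in control and 648 bp in cKO cells. Of the 13 promoters below these limits, 9 had a peak in each list, among them those of Neurog2, Pdx1, Tbr1 and Nkx2-5. Over all genes, 4497 of 11663 such promoters had a control peak and 4239 had a cKO peak. Myf5 had the lowest ratio, 0.163.

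**Figure D2:**
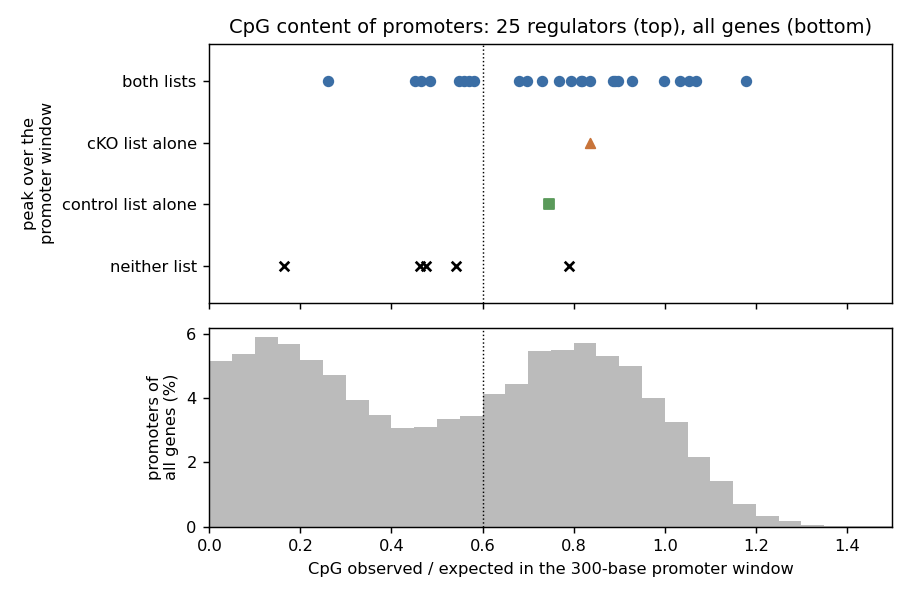
CpG observed over expected ratio (x axis) of the 32 promoters of 25 regulators, by whether a peak overlaps the 300-base window (top), and of all protein-coding promoters in the table (bottom, percent of promoters). The dotted line marks 0.6; 25 promoters have a peak in both lists, 5 in neither, that of Neurod1 in the cKO list alone and that of Six3 in the control list alone.

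The next comparison asked whether the open regions of these genes in control cells were also called in the cKO list. Among the 233 control peaks, 194 overlapped a cKO peak by at least 1 bp (83.3%, 77.8 to 87.8%) and 39 did not (16.7%, where 25.9% of all control peaks did not). Since weak peaks are found less often, each peak was set beside all control peaks of the same decile, which gave an expected 68.0%. The regulators thus stood 15.3 percentage points above peaks of equal strength. The excess lay in deciles 1 to 6: in deciles 1 to 3, 63 of 90 were found (70%, 59.4 to 79.2%) against 42.4% of all peaks there. In deciles 4 to 6, 71 of 79 were found (89.9%, 81.0 to 95.5%) against 74.9%. In deciles 7 to 10 it was 60 of 64 (93.8%, 84.8 to 98.3%), below the 97.4% of all peaks there, a share that lies inside the interval. Peak width differed as well, with a median in deciles 1 to 3 of 675 bp for the regulators and 583 bp for all control peaks. With classes by width in place of -log10 p the excess was 7.57 points. With decile and width class together it was 12.4 points, and with decile and class of distance to the nearest peak of the same list 14.4 points.

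**Figure D3:**
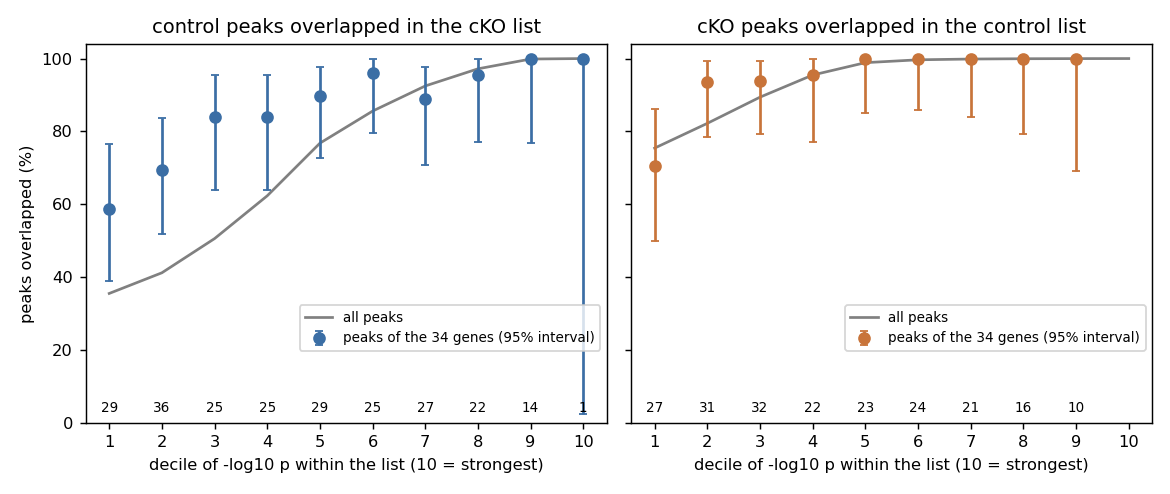
Percentage of peaks overlapped in the other list (y axis) by decile of -log10 p within the list (x axis), for the 34 genes (points, exact 95% intervals, number of peaks at the bottom) and for all peaks (grey line). Control peaks of the genes lie above the line in deciles 1 to 6. The cKO peaks lie at 70.4% in decile 1, where all peaks give 75.4%, and at 93.5% in decile 2, where all peaks give 82.2%. They lie at 100% in deciles 5 to 9, and decile 10 holds none.

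The sharing depended on distance from the gene. Of the 172 control peaks inside a gene or within 10 kb of it, 160 were found in the cKO list (93.0%, 88.1 to 96.3%), where peaks of the same deciles gave 68.6%. Of the 61 at 10 to 100 kb, 34 were found (55.7%, 42.4 to 68.5%), where 66.1% was expected. Over all control peaks the corresponding shares were 75.2% within 10 kb or inside a protein-coding gene and 71.7% at 10 to 100 kb. The near peaks were wider, with a median of 1081 bp against 606 bp, and had a neighbour in the same list at a median of 1110 bp against 8744 bp. The part of width and crowding in the step between near and distant peaks was not tested. All near control peaks were found at 24 of the 33 genes with any. At a distance, all were found at 12 of 25 genes and none at 5. These 5 had few distant peaks: Nkx2-2 and Sox10 had 1 each, Otx2 and Lhx2 2 each and Gata6 3. Such counts per gene were not made over all protein-coding genes, so they have no background here. The cKO peaks showed no such step, with 158 of 169 near peaks (93.5%) and 35 of 37 distant ones (94.6%) found in the control list.

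**Figure D4:**
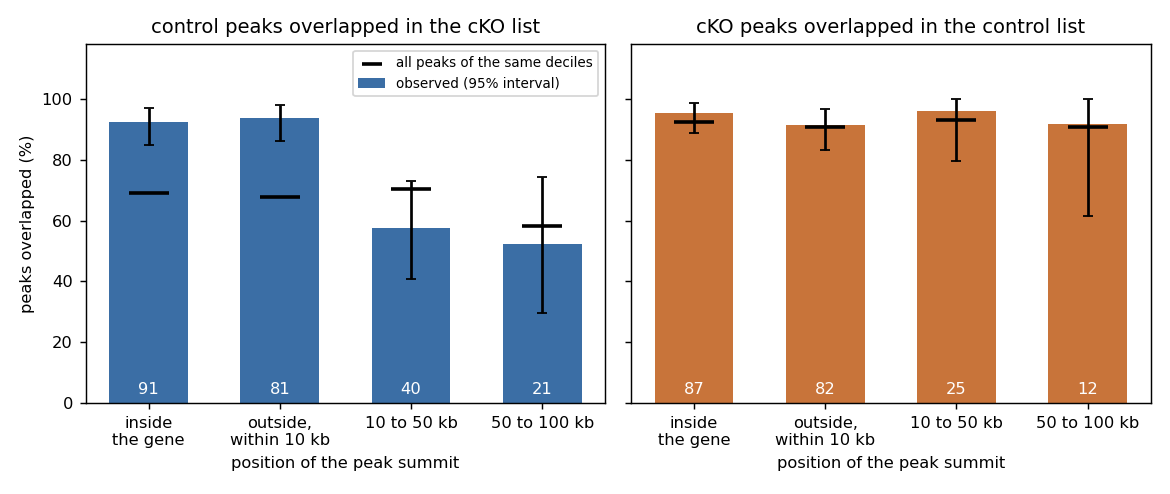
Percentage of the regulators' peaks overlapped in the other list (bars, exact 95% intervals, number of peaks inside) by position of the summit, beside the percentage among all peaks of the same deciles (black lines). Control peaks inside the gene or within 10 kb stand at 92.3% and 93.8%, above the lines at 69.2% and 67.9%, and those farther away at 57.5% and 52.4%, below the lines at 70.3% and 58.3%.

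The reverse comparison asked whether genes of other lineages open when Brg1 is missing. Of the 206 cKO peaks, 193 overlapped a control peak (93.7%, 89.5 to 96.6%) and 13 did not (6.31%, where 5.92% of all cKO peaks did not). Peaks of the same deciles gave 91.8%, so that 16.9 unmatched peaks would be expected where 13 were seen. The 13 peaks were weak: all lay in deciles 1 to 4, with -log10 p from 3.82 to 5.02, and all 94 cKO peaks in deciles 5 to 10 were found in the control list (96.2 to 100%). Over the whole cKO list, 3520 of 3622 unmatched peaks lay in those 4 weakest deciles. The 13 belonged to 9 genes, 26.5% of the 34, where 9.25% of protein-coding genes had such a peak, among genes with a median of 1 cKO peak rather than 6. By this setting the regulators as a group held no more peaks in the cKO list alone than peaks of equal strength did.

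That answer depended on list length. With the control list held to its 61210 most significant peaks, as many as the cKO list has, 55 of the 206 cKO peaks of these genes were unmatched, and 73.3% were found against 78.3% expected, a difference of -5.02 points in place of 1.90. In the same setting 15 of 162 control peaks were unmatched, and 90.7% were found against 80.4% expected. The control peaks left out in that setting are the least significant ones, so the cKO peaks counted as shared in the full lists include those matched only by weak control peaks. The direction of the difference is not settled by these lists.

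Most of the 13 lay beside open regions that both lists held. The control peak nearest to them was within 5 kb for 11 of 13, at a median of 1764 bp, where 43.9% of all unmatched cKO peaks had a control peak within 5 kb. Closeness was general at these genes: 63.1% of their cKO peaks had another cKO peak within 2 kb, against 28.7% of all cKO peaks. At Neurod1 (chromosome 2, 79452637 to 79456636) the control list had 3 peaks and the cKO list 5. The shared peaks were an 890 bp control peak inside the gene, in decile 9, and 2 peaks 42854 and 55454 bp upstream in the control. The cKO list added a 395 bp peak over the promoter printed above, with its summit 262 bp before the start, in decile 3, and an 877 bp peak with its summit 2605 bp before the start, in decile 1. The promoter peak had a -log10 p of 4.85, and in decile 3 of the cKO list 89.4% of all peaks were found in the control.

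Sox2 (chromosome 3, 34649995 to 34652461), the factor of neural and other progenitors, had 9 control and 11 cKO peaks. Its promoter peak was shared, 2894 bp wide in control and 2865 bp in cKO cells, in deciles 9 and 8. The cKO list alone had 515 bp and 865 bp peaks at 285 and 1026 bp past the far end of the gene, in deciles 1 and 2, and a 757 bp peak 57256 bp past it, in decile 4. The control list alone had 1 peak, in decile 1. Tbx5, a T-box factor of heart and forelimb, had 2 cKO peaks of this kind inside the gene, both in decile 1, and 2 unmatched control peaks outside it, both in decile 2. Its 7 peaks in each list were otherwise shared.

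**Figure D5:**
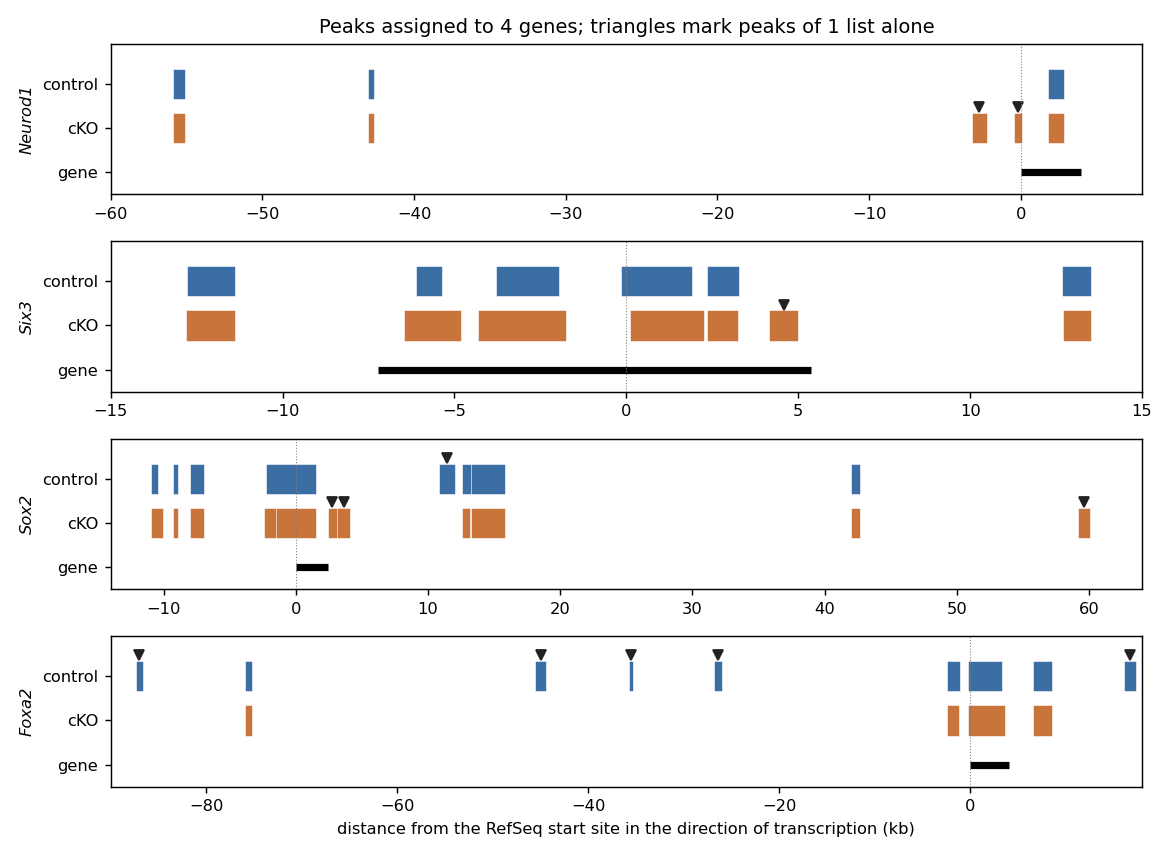
Peaks assigned to Neurod1, Six3, Sox2 and Foxa2 by distance from the RefSeq start site (x axis, kb, in the direction of transcription) in the control (blue) and cKO (orange) lists, with the extent of the gene in black. Triangles mark peaks of 1 list alone: 2 cKO peaks at Neurod1, 1 at Six3 and 3 at Sox2, and 1 control peak at Sox2 and 5 at Foxa2, the nearest 12306 bp from that gene.

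The other 6 genes had 1 such peak each. At Six3 a 775 bp peak inside the gene was in decile 3. At Olig2, a factor of motor neurons and oligodendrocytes, a 770 bp peak 3926 bp past the far end was in decile 1, beside a promoter peak of 3084 bp in control and 3309 bp in cKO cells. Msx1, a homeobox factor of face and limb, had a 1091 bp peak 1416 bp past its end, in decile 1. Pax3, a factor of neural crest and muscle precursors, had a 744 bp peak in decile 1, 460 bp from a control peak. Lhx2 had a 644 bp peak inside the gene in decile 1. Nkx2-1, which specifies thyroid, lung and forebrain, had a 635 bp peak 11994 bp from its end, in decile 2. Of these 9 genes, Neurod1, Olig2, Six3, Msx1 and Nkx2-1 had no unmatched control peak.

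The 39 unmatched control peaks were spread over 20 genes, 58.8% of the 34. Of all protein-coding genes 34.4% had one, among genes with a median of 2 control peaks rather than 7. They were narrow, with a median width of 498 bp against 1013 bp for the 194 that were found, and 27 of the 39 lay outside the gene and over 10 kb away. Foxa2 (chromosome 2, 148042877 to 148046969) had the most, 5 of 9, and all 4 of its cKO peaks were matched. Its 3 peaks inside or within 10 kb of the gene were shared, including one of 3363 bp in control and 3618 bp in cKO cells over the promoters, while 5 of 6 farther out were in the control list alone. Of those, an 881 bp peak 44926 bp upstream (chromosome 2, 148091521 to 148092401) was the most significant unmatched control peak of the group, in decile 8 with a -log10 p of 7.24, and a 590 bp peak 26334 bp upstream was in decile 7.

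Sox1, Pax3 and Gata6 had 4 unmatched control peaks each. Sox1, a factor of early neural tissue, kept all 4 control peaks within 10 kb and 2 of 6 farther out; the most significant of the missing ones, 40752 bp upstream, was in decile 7. Gata6, a zinc finger factor of heart and endoderm, kept 3 of 4 near peaks, including one of 4894 bp at its start that was 4834 bp in the cKO list, and 0 of 3 distant ones, in deciles 1 and 3. Pax3 differed in position, as its 4 missing peaks lay inside the gene, in deciles 1 and 3. Otx2, a homeobox factor of forebrain and eye, had 3 of 8, its strongest peak being in decile 6 of the control and decile 3 of the cKO list. Lhx2, Nkx6-1, Tbx5 and Hand2 had 2 each. The other 11 genes had 1 each. No unmatched peak of either list was assigned to Neurog2, Tbr1, Dlx5, Myod1, Gata4, Pdx1, Cdx2 or Lhx9, 8 genes with between 2 and 10 control peaks.

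By organ, unmatched peaks of the cKO list were counted mostly at neural genes. Brain and spinal cord genes had 8 of 95 cKO peaks unmatched, at 5 of 14 genes, and 91.6% found (84.1 to 96.3%) against 92.2% expected from equal deciles. Neural crest, face and limb genes had 2 of 34 unmatched, heart genes 2 of 42, and gut, lung, thyroid and pancreas genes 1 of 26. In each of these 3 groups the share found was above that expected, by 3.34, 3.38 and 4.79 points. These shares rest on few peaks, and the interval of the cKO share included the expected share in all 4 groups. For control peaks, 87 of 103 neural (84.5%, 70.3% expected), 32 of 38 crest, face and limb (84.2%, 63.7%), 40 of 51 heart (78.4%, 64.2%) and 25 of 31 gut, lung, thyroid and pancreas peaks (80.6%, 71.1%) were found. All 8 of Lhx9 and both of Myod1 were found.

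Shared peaks of these genes were about as wide in both lists. Among 174 pairs in which 1 control and 1 cKO peak overlapped only each other, the cKO peak was a median of 1.01 times as wide as the control peak and wider in 99 pairs (56.9%). Over all 54820 such pairs the median was 0.982 and the cKO peak was wider in 41.2%. The median ratio was above 1 at 20 of 33 genes, led by Myod1 with 1.84 over 2 pairs, and lowest at Cdx2, an intestinal factor, with 0.819 over 5 pairs. Peaks of the 34 genes covered 261 kb in control and 259 kb in cKO cells, while all peaks covered 84.6 and 71.4 Mb. Depth and background, which bear on widths, are unknown here. Summits of the pairs were a median of 15.5 bp apart and within 100 bp in 131 of 174 (75.3%), against 87.3% of all pairs.

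Other gene lists were counted with peaks assigned by nearest end within 100 kb only, without the inside-the-gene rule used for the regulators. Peaks inside these genes could thus go to a neighbouring gene or to none. The same holds for the peak counts of the marker genes below. Transcription factors of the kidney itself, 24 genes such as Pax2, Lhx1 and Wt1, kept 187 of 243 control peaks (77.0%, 71.1 to 82.1%), 5.28 points above equal deciles, and 193 of 201 of their cKO peaks were in the control list (96.0%, 3.16 points above). Subunits of the Polycomb complexes, 29 genes such as Ezh2 and Rnf2, kept 119 of 152 (78.3%, a difference of -2.19 points from equal deciles), and 120 of their 124 cKO peaks were matched. Differentiated genes of other organs, 33 genes such as the albumin gene Alb and the cardiac myosin gene Myh6, kept 65 of 92 (70.7%, -1.99 points), and 66 of 72 cKO peaks were matched (91.7%, -2.47 points). An end was open at 16 of these 33 genes by control and 13 by cKO peaks, with Myog, Tnnt2 and Afp open in the control list alone and none in the cKO list alone. Kidney factors had 23 of 24 and Polycomb genes 28 of 29 open ends in each list. The difference between the regulators and these lists was not tested.

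Marker genes were read for the sorted identity and for other cells. Of 8 nephron lineage markers, 7 had an open end in both lists, all but Cdh6. All 5 endothelial, 6 ureteric bud, 3 smooth muscle and 4 stromal markers had open ends in both, and of 8 glial and neuronal markers all but Th. Of 4 immune markers, Csf1r and C1qa had an open end in the control list alone and Ptprc and Laptm5 in neither. Of 4 erythroid markers, 1 had an open end in each list. Some markers stand in more than 1 list: 3 of the 8 nephron markers and 1 of the 4 stromal markers are also among the kidney factors, and 2 of the 8 glial and neuronal markers are also among the differentiated genes. Immune markers had 21 control and 14 cKO peaks. Of the control peaks of nephron markers, 67 of 103 were found in the cKO list (65.0%, -7.50 points from equal deciles), and of immune markers 12 of 21 (57.1%, -8.97 points) and of erythroid markers 4 of 8 (50%, -10.4 points). Stromal markers kept 42 of 47 (89.4%, 14.1 points above equal deciles) and glial and neuronal markers 23 of 29 (79.3%, 10.7 points above), beside 15.3 points above for the regulators. Endothelial, ureteric bud and smooth muscle markers stood 6.35, 4.04 and 3.54 points above. The part of other cells in the regulators' peaks was not tested.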

How the data were processed

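ATAC-seq peaks of 2 libraries were analysed, 1 per genotype. Per the submitters' processing notes, Trim Galore, SAMtools and Genrich were used on mm10, with aligner, versions, settings, duplicate handling and read shift not given in the sources used here. Each deposited file is a narrowPeak list with a score capped at 1000 (not used), a signal that is the area under the caller's curve, at least 200, and -log10 p and -log10 q of the authors' peak caller (lowest -log10 q 1.42 in the control, 1.35 in the cKO list). These values rank peaks within a list only; depth is unknown.

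Genes came from RefSeq GRCm38.p6 (49943 on chromosomes), promoters from its 300-base table. Overlap and expected shares were computed in Python 3.11.15 and tested on simulated data and against bedtools. The expected share averages, over the peaks counted, the share found among all peaks of the same decile. The members, the lists and the rule for named genes were chosen with earlier results of these data known. Given in full were the 8 genes with most peaks, those with a cKO-only peak, the 5 with most control-only peaks and those with an end open in 1 list; others are given by counts and ranges or named as exceptions. The alternatives were overlap, strength measure, window, gene set, list length and members; classes by width, neighbour distance and distance band were added after seeing the data. Results of single erythroid markers are not reported here.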

Additional observations from a re-analysis of the deposited data

How the results depend on the processing

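No paired analysis was possible because each genotype has 1 library. The share of control peaks found (83.3%) was 76.0% with overlap of 50% of both peaks, 93.0% inside the gene or within 10 kb, 87.9% with the nearest gene of any kind, 90.7% with equal list lengths and 74.2% in the more significant 50% of each list. Its excess over expectation (15.3 points) was positive in all 13 settings run, at 24.4 within 10 kb, 9.40 in the more significant 50%, 7.57 with classes by width, and 10.4 to 19.9 in the other 10. The share of cKO peaks found (93.7%) was 85.9% with 50% overlap and 73.3% with equal lengths. Its difference from expectation (1.90 points) changed sign with deciles by area (-0.43), by width (-1.47) and with equal lengths (-5.02), and lay between 0.29 and 1.97 in the other 10 settings. Genes with an end open in the cKO list alone (2) numbered 0 with a 2000 bp window, 1 by RefSeq start and 4 with equal lengths; those in the control list alone (0) numbered 1 with 500 bp and 2 in the more significant 50%. The near share of control peaks stayed above the distant one in each setting that gave both, at 82.1 to 99.2% against 36.4 to 65.9%. The causes were not tested. Unknown depth limits what a missing peak shows.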

Other observations

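Few peaks lay at the edge of the 100 kb window. Between 90 and 100 kb there were 5 control peaks, 4 of them found in the cKO list, and 4 cKO peaks, all found in the control list; between 100 and 110 kb there was 1 in each list, found in the other.

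Broad peaks were as common at these genes as elsewhere in the control list and more common in the cKO list: 24 of 233 control peaks (10.3%) and 34 of 206 cKO peaks (16.5%) were 2 kb or wider, against 11% and 12.8% of all peaks. No test was made of this difference.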
